A study of Mus musculus with 29 samples.

Results

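OFF sustained alpha (OFF S alpha) and OFF transient alpha (OFF T alpha) retinal ganglion cells (RGCs) were compared as single cells. Of the 29 RGCs in the series, 7 carried one of the labels Off Sustained Alpha or Off Transient Alpha and were taken by that label alone: 4 OFF S alpha cells (numbers 14, 15, 16 and 18) and 3 OFF T alpha cells (numbers 17, 19 and 20). All came from the retina of adult C57BL/6 mice, given as C57BL/6J in the study's methods, with no treatment and no transgene given in the labels. Each RGC in the living, mounted retina was classified by its spike responses to light in a cell-attached recording, then aspirated, and its cDNA was amplified by PCR and hybridized to its own Affymetrix Mouse 430 2.0 array. The other 22 cells were 2 ON alpha cells (numbers 12 and 13) and 20 cells of other subtypes, all handled the same way. The labels do not say which cells came from the same animal, so each group counts as 1 sample: no test was run between the groups, and the values below describe these cells.

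Alpha RGCs are large-bodied cells with wide dendrites and thick, fast axons. OFF alpha cells fire when light dims. The sustained type keeps firing through the dark period, while the transient type fires a short burst at its onset. Spike patterning in such neurons depends on voltage-gated potassium channels, among them the Kv1 channels of the axon and the fast-inactivating Kv4 channels, which are assembled with KChIP (*Kcnip*) and DPP partner proteins. Alpha cells as a class are known for a high content of heavy neurofilament (*Nefh*) and for the modulatory subunit *Kcng4*, and ON alpha cells also make melanopsin (*Opn4*).

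Values are MAS5 signals, a linear brightness of each probe set (a group of short probes for one transcript), scaled so that the trimmed mean of every array was 1500. A gene was called detected in a cell at a signal of 3000 or more. For medians, signals below 375 were raised to that floor (8.55 on the log2 scale), since lower values were treated as having no order, and so a difference against a group at the floor is understated. Signals are given cell by cell, in the order 14, 15, 16 and 18 for the OFF S alpha (sustained) cells and 17, 19 and 20 for the OFF T alpha (transient) cells. All differences are OFF S alpha minus OFF T alpha on the log2 scale, taken between group medians. A gene was past the fold when the signals of the 2 groups did not overlap and the medians differed at least 4-fold.

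The label of the 7 cells as OFF alpha RGCs was checked against markers. *Nefh* was detected in 7 of 7 cells, at 98354, 62278, 175659 and 150666 in the OFF S alpha cells and 128090, 155621 and 145101 in the OFF T alpha cells, and in 11 of the other 22. *Kcng4* was detected in 1 of 4 OFF S alpha and 2 of 3 OFF T alpha cells. The further alpha markers *Kit*, *Tpbg* and *Il1rapl2* were detected in 0 of 7, and *Fes* in 0 of 4 OFF S alpha and 1 of 3 OFF T alpha cells. Of the 15 RGC markers with a value, 7 to 13 were detected in each OFF S alpha cell and 10 to 12 in each OFF T alpha cell. *Opn4* was detected in 0 of 7 OFF alpha cells, where its highest signal was 121, against 50210 and 76724 in the 2 ON alpha cells. *Kcnip2*, which encodes KChIP2, was detected in 6 of 7 OFF alpha cells, in 0 of 2 ON alpha cells and in 1 of the other 20, but it was singled out in these same cells and so checks nothing. The labels sustained and transient were not checked against markers.

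The cells differed in depth and in markers of other retinal cell types, and both differed by label with overlap between the groups. The source of that marker RNA was not tested. The OFF S alpha cells 14, 15, 16 and 18 held 3151, 2981, 1672 and 2012 detected genes, and the OFF T alpha cells 17, 19 and 20 held 4073, 3015 and 2596, out of 18194 genes with a value. Rod photoreceptor markers were detected in every OFF S alpha cell, 11, 6, 9 and 10 of the 12 with a value, against 1, 7 and 1 in the OFF T alpha cells. The summed signal of the 12 rod markers ran from 251639 to 3832118 in the OFF S alpha cells and from 9243 to 701388 in the OFF T alpha cells. Rod transducin *Gnat1* read 314497, 94834, 459866 and 739952 in the sustained cells and 243, 163699 and 11.3 in the transient cells. Thus OFF T alpha 19 was the only transient cell within the sustained range of summed rod signal. It lay above OFF S alpha 15 but below OFF S alpha 14, 16 and 18. Cone markers were detected in 0 to 4 of 7 in the OFF S alpha cells and in 0 of 7 in each OFF T alpha cell, and bipolar markers in 1 to 3 of 10 against 0 to 1. The bipolar marker *Pcp2* read 78374, 137, 79068 and 70924 in the sustained cells and 10.1, 88 and 8.56 in the transient cells, high in 3 sustained cells and below the floor elsewhere. Müller glia and astrocyte markers numbered 2 to 7 of 14 in the OFF S alpha cells and 2 to 6 in the OFF T alpha cells, and *Clu* among them was detected in all 7 cells. None of the 11 microglia and vascular markers was detected in any of the 7 cells.

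**Figure D1:**
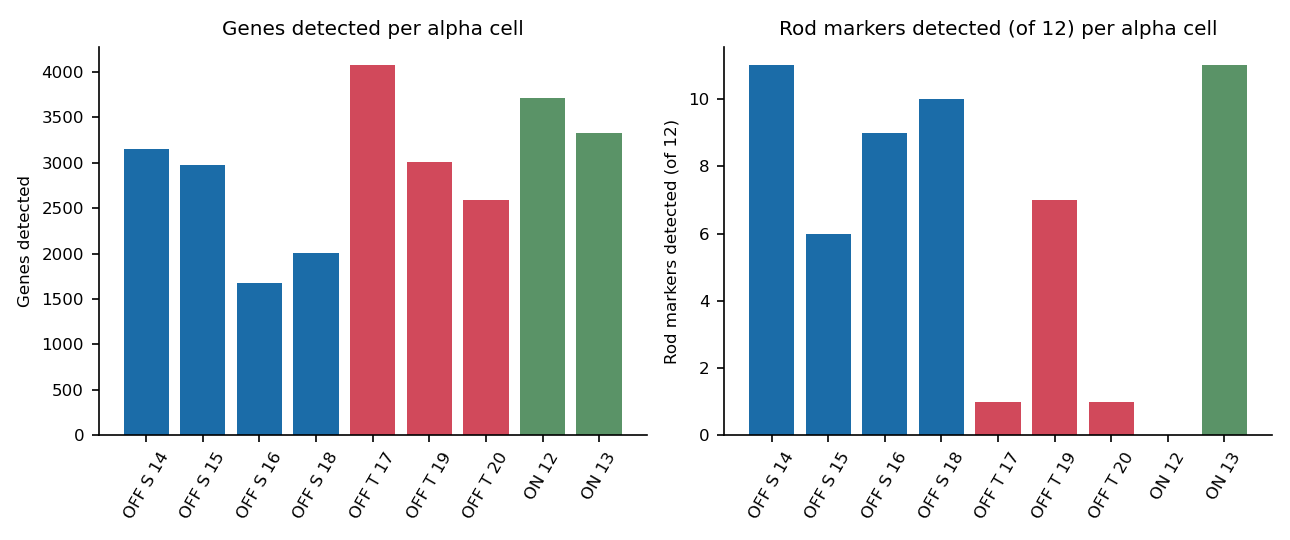
Bars give the number of genes detected (left axis, genes) and of the 12 rod markers detected (right panel, genes) in each alpha cell, with OFF S alpha in blue, OFF T alpha in red and ON alpha in green. The 4 OFF S alpha cells hold 6 to 11 rod markers, and of the OFF T alpha cells only number 19, with 7, lies in that range.

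Across the 3217 genes detected in at least 3 of the 7 cells, 158 genes (4.91%) lay past the fold with OFF T alpha above OFF S alpha, and 20 genes (0.622%) lay past it with OFF S alpha above. The median difference over all 3217 genes was -0.87, with 2033 differences below 0 and 1184 above, so that most of these genes read higher in the transient cells. The filter admits genes detected in one group alone, so this balance depends in part on which group let genes through. Of the 3217 genes, 2581 were detected in at least 2 transient cells and 1295 in at least 3 sustained cells. By detection, read from the same signals, 81 genes (2.52%) were detected in 3 of 3 OFF T alpha and 0 of 4 OFF S alpha cells. The other way round there were 2 genes (0.0622%), *Hspb6* and *Eif3e*. These bars are unlike, since 492 genes were detected in all 4 OFF S alpha cells and 1407 in all 3 OFF T alpha cells. Without OFF S alpha 14, 15, 16 or 18 the sustained-side counts were 8, 28, 27 and 19. The transient-side counts were then 123, 216, 99 and 98. The split differed with the scaling and with the cells compared. After quantile normalization 45 genes lay on the sustained side and 143 on the transient side, and the median difference over the same 3217 genes was -0.73. Between the 2 cells of each group with the closest numbers of detected genes (OFF S alpha 14 and 15, OFF T alpha 19 and 20), 424 genes lay past the fold on the sustained side and 383 on the transient side, with a median difference of 0. These counts are over 3254 genes at a minimum of 2 detected cells. With 2 cells a group non-overlap is met more easily, so they are not comparable with 20 and 158. With any single cell left out both counts were higher, with fewer values to keep apart and, where a transient cell was left out, a minimum of 2 detected cells in place of 3. The sustained-side count reached 32, 105, 73 and 56 without OFF S alpha 14, 15, 16 and 18 and 72, 62 and 27 without OFF T alpha 17, 19 and 20. The transient-side count reached 214, 330, 177 and 174 and then 303, 381 and 369 in the same order. The part of depth in the surplus of genes on the transient side was not tested.

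**Figure D2:**
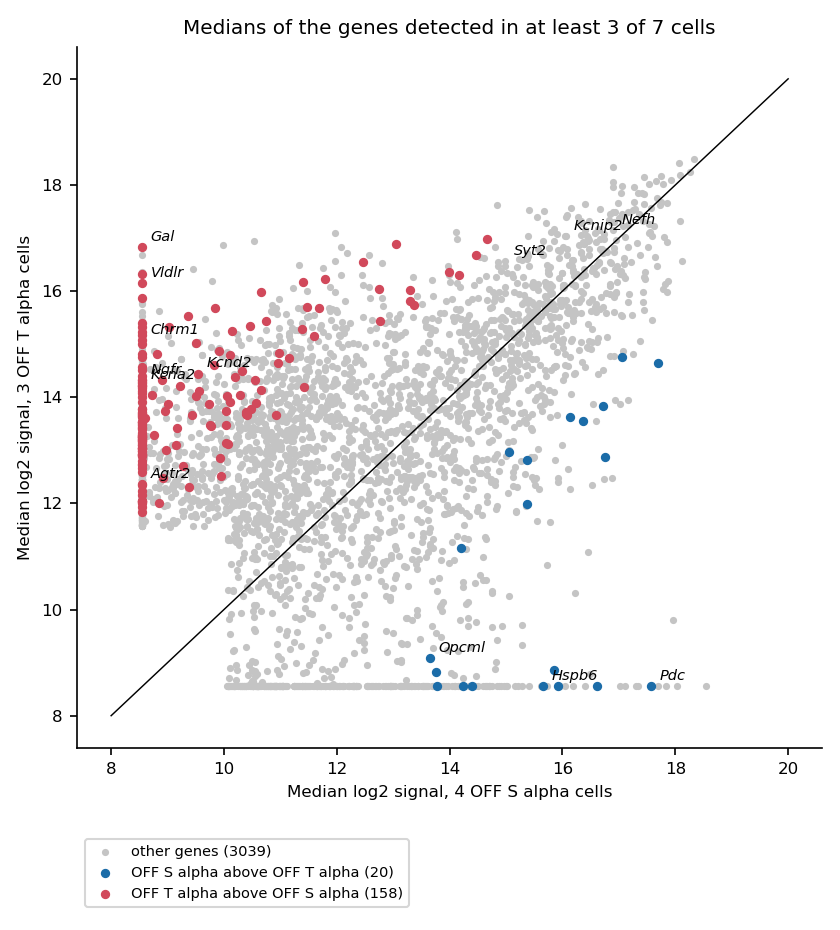
Each point is a gene detected in at least 3 of the 7 cells, placed by its median log2 signal in the 4 OFF S alpha cells (x axis) and the 3 OFF T alpha cells (y axis), with equal values on the line. The 158 red genes lie past the fold on the transient side, many of them at the floor of 8.55 in OFF S alpha, and the 20 blue genes on the sustained side.

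Among the 81 genes detected in every transient and no sustained cell, those with the largest differences included a neuropeptide and 2 receptors that were detected nowhere else in the series. Galanin (*Gal*), a neuropeptide, read 121, 13.4, 12.2 and 29.2 in the sustained cells and 39387, 116014 and 123210 in the transient cells. All 3 transient cells were bright and all 4 sustained cells were below the floor. The highest signal among the other 22 cells was 316, so *Gal* was detected in 0 of 22, and the difference between the groups was -8.27. *Chrm1*, the M1 muscarinic acetylcholine receptor, read 12.2, 122, 204 and 21.2 in the sustained cells and 26272, 61413 and 34679 in the transient cells. Again the groups stood apart, by -6.53, and *Chrm1* was detected in 0 of the other 22 cells, where its highest signal was 2099. A second *Chrm1* probe set was below the detection threshold in all 7 cells.

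*Ngfr*, the p75 neurotrophin receptor, read 37.6, 105, 4.08 and 80.8 in the sustained cells and 19988, 20496 and 32854 in the transient cells. All 3 transient cells were detected and no sustained cell passed the floor. The difference was -5.77, and the highest signal among the other 22 cells, 2926, fell just short of the threshold. Of the 2 further *Ngfr* probe sets, 1 passed the threshold in OFF T alpha 20, and no other OFF alpha cell passed it on either. *Agtr2*, the type 2 angiotensin receptor, was named after its values were seen, as the only other gene of the 81 that was detected in 0 of the 22 cells. It read 5.07, 298, 20.7 and 53.1 in the sustained cells and 13922, 5261 and 4015 in the transient cells. The transient cells were all detected and the sustained cells all below the floor, with a difference of -3.81 and a highest signal of 104 elsewhere. A count of 0 among 22 cells allows a share of up to 13.6%, a limit for counting error only, over cells of several subtypes and unnamed animals. By the same limit a count of 0 among the 4 OFF S alpha cells allows a share of up to 75%. For all 4 genes OFF T alpha 19 lay between cells 17 and 20 or above both. The part of rod RNA in these genes was not tested.

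**Figure D3:**
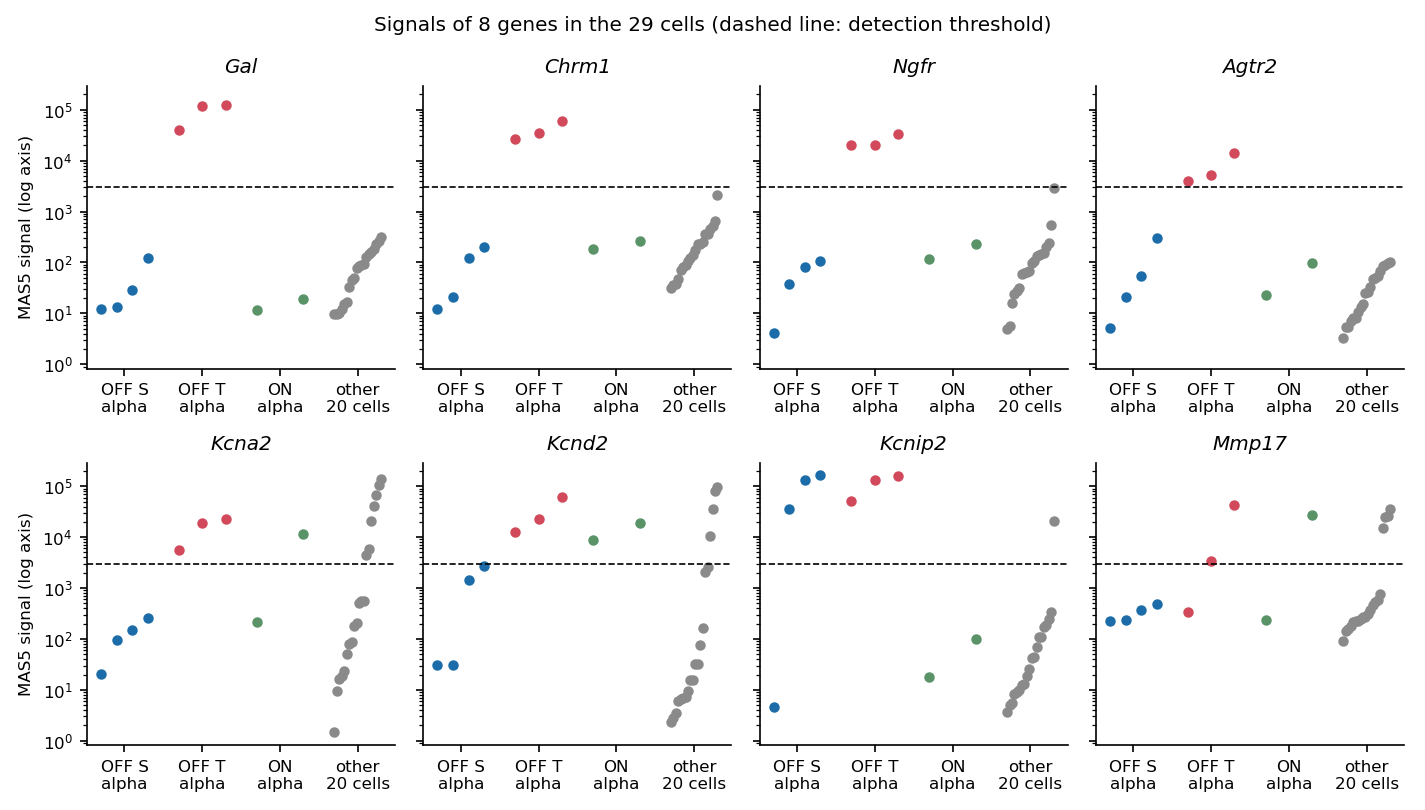
Each point is 1 cell, placed by its MAS5 signal (log axis) and its group, sorted within the group, with the detection threshold of 3000 dashed. *Gal*, *Chrm1*, *Ngfr* and *Agtr2* pass the threshold in the 3 OFF T alpha cells and in none of the other 26, *Kcna2* and *Kcnd2* pass it in the transient cells and in some other cells, *Kcnip2* in 6 of 7 OFF alpha cells, and *Mmp17* in 2 OFF T alpha cells.

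The promoters of 4 genes of the transient side are shown because they belong to a peptide, a receptor and 2 channels that the rest of the comparison turns on. Each runs from 250 bases before to 50 bases after the gene's start in the RefSeq annotation of mouse build GRCm38.p6, 5′ to 3′ on the gene's strand: *Gal* at chr19:3414495-3414794 (minus strand), *Ngfr* at chr11:95587649-95587948 (minus), *Kcna2* at chr3:107101317-107101616 (plus) and *Kcnd2* at chr6:21215096-21215395 (plus). Capitals mark the GC box, GGGCGG on either strand.
Gal: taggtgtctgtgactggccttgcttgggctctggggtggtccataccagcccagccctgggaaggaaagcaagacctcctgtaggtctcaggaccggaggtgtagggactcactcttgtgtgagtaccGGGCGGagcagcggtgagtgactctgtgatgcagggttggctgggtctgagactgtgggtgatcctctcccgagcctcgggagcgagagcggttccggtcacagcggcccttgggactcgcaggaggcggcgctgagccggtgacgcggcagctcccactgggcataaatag
Ngfr: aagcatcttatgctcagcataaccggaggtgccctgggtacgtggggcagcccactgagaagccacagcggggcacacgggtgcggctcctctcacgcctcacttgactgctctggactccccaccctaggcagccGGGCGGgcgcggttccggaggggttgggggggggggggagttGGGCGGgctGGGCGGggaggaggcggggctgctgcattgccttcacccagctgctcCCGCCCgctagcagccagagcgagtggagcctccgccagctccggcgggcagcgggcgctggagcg
Kcna2: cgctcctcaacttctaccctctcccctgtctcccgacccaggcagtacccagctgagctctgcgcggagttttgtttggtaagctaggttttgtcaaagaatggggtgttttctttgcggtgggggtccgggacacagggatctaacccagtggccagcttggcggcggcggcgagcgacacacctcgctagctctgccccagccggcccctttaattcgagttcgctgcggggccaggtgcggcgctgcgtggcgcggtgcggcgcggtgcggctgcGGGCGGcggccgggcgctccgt
Kcnd2: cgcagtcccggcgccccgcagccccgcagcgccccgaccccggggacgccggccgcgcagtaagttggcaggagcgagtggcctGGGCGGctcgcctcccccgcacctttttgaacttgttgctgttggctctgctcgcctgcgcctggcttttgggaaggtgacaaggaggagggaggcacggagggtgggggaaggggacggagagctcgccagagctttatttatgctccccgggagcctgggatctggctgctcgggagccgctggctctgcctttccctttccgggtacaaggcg
The windows held 63.3%, 71.7%, 66.7% and 68.7% G and C in that order. The GC box occurred 1, 4, 1 and 1 times, and 35.7% of all 32851 RefSeq promoter windows hold at least 1. TATAAA (in 13.6% of windows), CCAAT (37.4%), the cyclic AMP response element TGACGTCA (1.79%) and the E box CACGTG (7.15%) were searched on both strands, and none of these letters was in the 4 windows. *Chrm1* and *Mmp17* had no entry in the promoter table.

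Of the 12 genes with the largest differences among those 81, the remaining 9 were detected in 4 to 15 of the other 22 cells. *Vldlr*, a receptor for lipoproteins and reelin, read 8.1, 162, 50.8 and 8.89 in the sustained cells and 18697, 73030 and 90359 in the transient cells, with all 3 transient cells bright and all 4 sustained cells below the floor. The difference was -7.61, and a second probe set showed the transient cells detected and the sustained cells not. Each of the 4 further probe sets passed the threshold for a single sustained cell. On 1 of them it was cell 14, at 5984, and transient cell 17 passed as well, at 3896. On the rest it was cell 18, at 15315, 8467 and 6330, while every transient cell stayed below the threshold. Thus *Vldlr* was not shown to be absent from the sustained cells. *Tmem250-ps* differed by -6.85 and *Lhfp* by -6.21. *Nudt2*, which hydrolyses diadenosine tetraphosphate, differed by -6.02 and *AU040320* by -5.96. *Eif3l*, a subunit of translation initiation factor 3, read 2235, 2563, 144 and 12.8 in the sustained cells and 19001, 52325 and 59576 in the transient cells, apart but with 2 sustained cells near the threshold. *Cirbp*, a cold-inducible RNA-binding protein, differed by -5.78. *Arnt2*, a transcription factor of the bHLH-PAS family, differed by -5.66 and fell inside the fold, to -1.89, when all its probe sets were averaged.

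Over the 158 transient-side genes the median difference was -4.53. A gene of this set was detected in a median of 9 of the other 22 cells, 70 were detected in at least 11, and the 4 genes above were detected in 0. In the 2 ON alpha cells, 58 of the 158 were detected in both, 63 in 1 and 37 in neither.

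Voltage-gated potassium channels were read by family. Of 27 Kv alpha subunits with a value, 12 were detected in none of the 7 cells and 10 were detected in at least 3. Of these 10, 2 lay past the fold, both on the transient side, against 4.91% of all 3217 genes on that side, and the median difference was -2.14 against -0.87 for all genes. *Kcna2*, the delayed rectifier subunit Kv1.2, read 20.4, 95.6, 258 and 148 in the sustained cells and 19237, 22472 and 5533 in the transient cells. The sustained cells were all below the floor and the transient cells all detected, with a difference of -5.68. It was detected in 8 of the other 22 cells, ON alpha 13 among them. With its 4 probe sets averaged the difference was -1.55, inside the fold, and another probe set was detected in 1 sustained and 1 transient cell.

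*Kcnd2*, the A-type subunit Kv4.2, read 31.1, 2664, 1472 and 31.5 in the sustained cells and 60847, 12385 and 22341 in the transient cells. No sustained cell reached the threshold, although OFF S alpha 15 came close to it, and the difference was -4.91. Both ON alpha cells were detected, at 8840 and 18676, with 6 of 22 detected outside in all. A second *Kcnd2* probe set passed the threshold in 2 transient cells and 2 more passed it in none of the 7. *Kcnd3*, or Kv4.3, read 125, 68203, 6740 and 12.1 in the sustained cells and 11452, 34620 and 85755 in the transient cells. It overlapped between the groups, because OFF S alpha 15 was as bright as the transient cells while 14 and 18 were below the floor. *Kcnd1*, or Kv4.1, also overlapped, with a difference of 0.25.

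Among the 6 Kv4 partner genes, 5 were detected in at least 3 of the 7 cells and none lay past the fold, with a median difference of -2.79. *Kcnip2* read 4.66, 35628, 163733 and 130395 in the sustained cells and 50448, 160341 and 134489 in the transient cells, bright in every cell of both groups but OFF S alpha 14, which was below the floor. A second *Kcnip2* probe set passed the threshold in 1 sustained and 1 transient cell, and the last passed it in none. *Kcnip1* was detected in all 7 cells with a difference of -0.29. *Kcnip3* read 568, 636, 50418 and 3.21 in the sustained cells and 4153, 3956 and 6054 in the transient cells, detected in every transient cell and, of the sustained cells, only in number 16, which was brighter than all of them.

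*Kcnip4* read 7352, 2639, 5.11 and 315 in the sustained cells and 16799, 8575 and 7241 in the transient cells. *Dpp6*, a transmembrane partner of Kv4 channels, read 566, 29161, 28.8 and 38.9 in the sustained cells and 23600, 3212 and 15760 in the transient cells. Each was detected in 3 of 3 transient cells and 1 of 4 sustained cells, and that 1 sustained cell lay within the transient range for *Kcnip4* and above it for *Dpp6*. *Dpp10*, the sixth partner, was detected in OFF S alpha 14 and OFF T alpha 17 only. Of the 3 Kv4 alpha subunits and 6 partners together, the sustained cells held 4, 5, 4 and 2 detected genes and the transient cells 9, 7 and 7. Of all 18194 genes the sustained cells held 3151, 2981, 1672 and 2012 and the transient cells 4073, 3015 and 2596. The 9 genes include *Kcnd2*, which was past the fold, and *Kcnip2*, which was singled out in these same cells. The part of depth in these counts was not tested.

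*Kcnc4*, or Kv3.4, went the other way, at 7656, 20063, 26013 and 71 in the sustained cells and 1.71, 481 and 9.08 in the transient cells. It was detected in 3 of 4 sustained and 0 of 3 transient cells, but OFF S alpha 18 was below the floor and the groups overlapped, so that its difference of 5.05 did not count as past the fold. *Kcnc1*, or Kv3.1, was detected in 7 of 7 cells (difference 0.46). *Kcng4* read 30.4, 2644, 165 and 39849 in the sustained cells and 34611, 12390 and 2231 in the transient cells, bright in 1 sustained and 2 transient cells and overlapping. Of 3 HCN channel genes with a value, none was detected in any of the 7 cells. Of 23 other potassium channel genes, 5 were detected in at least 3 cells and 0 were past the fold, the largest difference being that of *Kcnj3* (-4.13), a G-protein-gated inward rectifier.

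**Figure D4:**
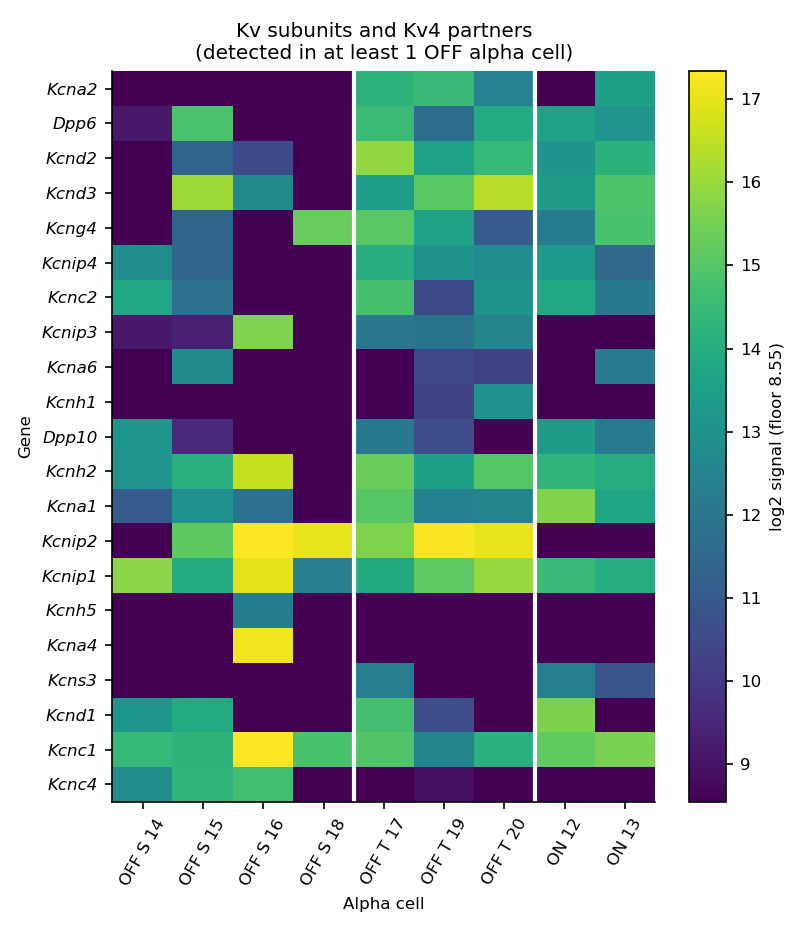
Colour gives the log2 signal, floored at 8.55, of each Kv alpha subunit or Kv4 partner detected in at least 1 OFF alpha cell (rows, by difference) in each alpha cell (columns; white lines part OFF S, OFF T and ON alpha). *Kcna2* and *Kcnd2* near the top are lit in all 3 OFF T alpha cells. So is *Dpp6* between them, which is brightest in OFF S alpha 15. *Kcnip2* is lit in 6 of 7 OFF alpha cells and neither ON alpha cell, and *Kcnc4* at the bottom in 3 OFF S alpha cells.

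Of the 17 alpha RGC markers with a value, 11 were detected in at least 3 of the 7 cells, 2 were past the fold, both on the transient side (4.91% of all genes), and the median difference was -1.17. The list holds *Kcnip2*, *Chrm1*, *Mmp17*, *Pigo* and *Pank1*, which were picked with results of these same cells known and so are no independent evidence of a direction. *Mmp17*, a membrane-anchored metalloproteinase, read 238, 480, 226 and 363 in the sustained cells and 342, 3422 and 43436 in the transient cells. It was bright in OFF T alpha 20, just over the threshold in 19 and below the floor in 17, so that the groups overlapped, and it was detected in 5 of the other 22 cells, among them ON alpha 13. *Armh4* was the second marker past the fold, at 87, 13303, 5948 and 107 in the sustained cells and 17620, 20497 and 35329 in the transient cells, and without OFF S alpha 14 or 18 its difference of -3.78 shrank to -1.78, inside the fold.

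The calcium buffer parvalbumin (*Pvalb*) read 92551, 114676, 121449 and 1188 in the sustained cells and 111369, 345898 and 146272 in the transient cells, detected in all but OFF S alpha 18. Calretinin (*Calb2*) was detected in 7 of 7 cells with a difference of -1.17. *Pigo*, an enzyme of GPI anchor synthesis, read 101, 80.6, 10302 and 76403 in the sustained cells and 18226, 3463 and 26986 in the transient cells, while *Pank1*, which starts coenzyme A synthesis, was detected in 2 sustained cells, 1 transient cell and none of the other 22. *Cplx2*, a complexin of the release machinery, differed by -3.38 and *Ppargc1a*, a regulator of mitochondrial genes, by 0.09, both with overlapping groups. Of the 7 cells *Fes* was detected only in OFF T alpha 17, and *Kit*, *Tpbg* and *Il1rapl2* were detected in none of the 29 cells.

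The 20 genes on the sustained side had a median difference of 4.21, were detected in a median of 14.5 and at least 5 of the other 22 cells, and 13 of them were detected in both ON alpha cells. Of these genes *Pdc*, *Opcml*, *Hspb6* and *Eif3e* met the naming rule, and the others are named after their values were seen. The largest difference was that of phosducin (*Pdc*), a photoreceptor protein that binds transducin subunits and 1 of the 12 rod markers, at 197216, 6852, 191892 and 484863 in the sustained cells and 8.55, 3786 and 73.3 in the transient cells. It was bright in 3 sustained cells and dim in OFF S alpha 15 and OFF T alpha 19. Among the other 22 cells, 13 had at least 5 rod markers and *Pdc* was detected in 13 of those 13 and in 0 of the remaining 9. *Pdc* is itself among the markers that made this split, so its counts were partly fixed by it. It is also 1 of the 20 genes summarized below. *Fabp12*, a fatty acid-binding protein, was detected in 10 of the 13 and 0 of the 9. *Stx3*, the syntaxin of ribbon synapses, was detected in 13 of 13 and 4 of 9, and its lowest sustained signal, 476 in OFF S alpha 15, was only just above its highest transient signal, 450. *Gnb3*, a G-protein beta subunit of cones and ON bipolar cells, was detected in 9 of 13 and 1 of 9. For the 20 genes together the median share of cells with a detected signal was 73.1% among the 13 cells and 55.6% among the 9, against 46.2% and 44.4% for the 158 transient-side genes.

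*Hspb6*, a small heat shock protein, and *Eif3e*, a translation initiation factor subunit, were the 2 genes detected in every sustained cell and no transient cell. *Hspb6* read 10424, 45167, 59410 and 64872 in the sustained cells and 7.37, 56.7 and 6.25 in the transient cells, with OFF T alpha 19 as low as cells 17 and 20. It was detected in 9 of the 13 outside cells with rod markers and 4 of the 9 without. *Eif3e* read 13070, 15026, 109242 and 7011 in the sustained cells and 7.21, 77.5 and 238 in the transient cells, and 2 other probe sets also detected it in 3 or 4 sustained cells and no transient cell. It was detected in 8 of the 13 and 7 of the 9. *Eif3e* and *Eif3l*, which encode subunits of the same factor, thus stood on opposite sides, at 5.22 and -5.84. A further subunit gene, *Eif3a*, also lay past the fold on the transient side, at -5.35.

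The sustained side also held *Opcml*, a GPI-anchored adhesion protein of the immunoglobulin family, which read 6356, 2882, 25886 and 33951 in the sustained cells and 1063, 544 and 22.9 in the transient cells, with OFF S alpha 15 just short of the threshold and a difference of 4.56. It was detected in 3 of the 13 outside cells with rod markers and 5 of the 9 without. *Sgk1*, a kinase induced by glucocorticoids and stress, differed by 5.68, and *Pcna*, the DNA polymerase clamp, by 4.93. *A330094K24Rik* differed by 5.84 and *Gstp1*, a glutathione transferase, by 3.86. The ribosomal protein genes *Rps20* and *Rps19* differed by 3.05 and 2.51 and were detected in all 4 sustained and 2 of 3 transient cells. *Anapc13*, *Nucb1*, *Eif4h*, *D8Ertd738e*, *Htatsf1*, *Atp5mpl* and *Mrps21* made up the rest, between 2.09 and 3.38. The part of rod RNA in the sustained-side genes was not tested.

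**Figure D5:**
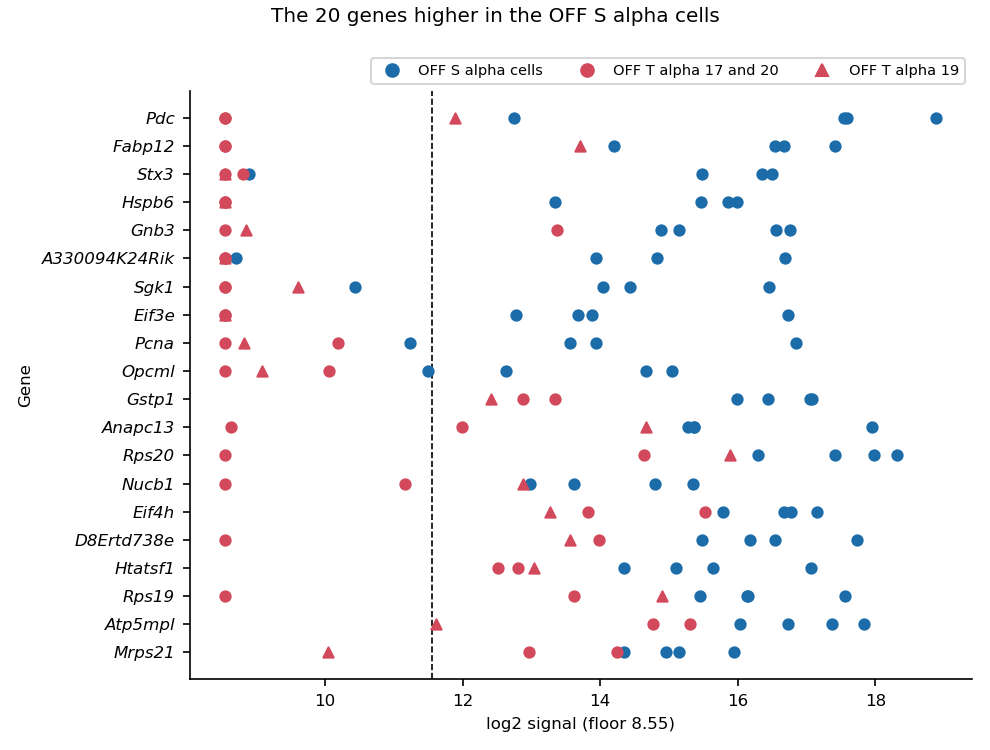
Each row is 1 of the 20 sustained-side genes and each point 1 OFF alpha cell at its log2 signal, floored at 8.55. The detection threshold is dashed. A triangle marks OFF T alpha 19, the transient cell with the most rod markers detected. For *Hspb6* and *Eif3e* all 3 transient cells sit at the floor, while for *Anapc13* and *Rps20* the triangle sits close to the sustained cells.

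The lists that follow are read against the same background, 4.91% of all 3217 genes past the fold on the transient side, 0.622% on the sustained side, and a median difference of -0.87. Of 15 sodium channel and partner genes with a value 4 were detected in at least 3 cells, and of 16 calcium channel genes 2, with 0 past the fold in either. *Scn8a*, the Nav1.6 channel of the axon initial segment, was detected in 7 of 7 cells with a difference of -1.64. The T-type channel gene *Cacna1h* read 33.6, 32.5, 154 and 68949 in the sustained cells and 24839, 9146 and 19084 in the transient cells, detected in every transient cell but brightest in OFF S alpha 18. Of 20 AMPA, kainate and delta receptor and associated genes 3 were detected in at least 3 cells, of 6 NMDA and 6 metabotropic glutamate receptor genes 0, and none was past the fold. Of 18 GABA and glycine receptor genes 5 were detected in at least 3 cells and 0 were past the fold. Among them was *Glra1*, the glycine receptor alpha 1 subunit, at 1.87, 22558, 31.7 and 11 in the sustained cells and 8078, 3639 and 100679 in the transient cells, where OFF S alpha 15 lay within the transient range.

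Of 15 acetylcholine receptor genes with a value, 3 were detected in at least 3 cells and 1, *Chrm1*, lay past the fold on the transient side (4.91% of all genes). The nicotinic subunits *Chrna6* and *Chrnb2* overlapped, with differences of 1.71 and -2.85. Of 18 amine and peptide receptor genes 2 and of 10 gap junction genes 2 were detected in at least 3 cells, with 0 past the fold. *Gjd2*, the neuronal connexin 36, read 267, 47, 53776 and 124 in the sustained cells and 16353, 14140 and 56624 in the transient cells, bright in every transient cell and in OFF S alpha 16. Of 18 calcium-binding protein genes 8 were detected in at least 3 cells and none was past the fold. *S100a10* had the widest gap in that list on the transient side, -6.86, at 65.5, 33379, 7.12 and 41.8 in the sustained cells and 12449, 43513 and 120272 in the transient cells, and again 1 sustained cell, number 15, lay within the transient range.

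Of 30 neurofilament and axonal genes with a value, 20 were detected in at least 3 cells, 2 were past the fold on the transient side (4.91% of all genes), and the median difference was -0.61. *Stmn2*, a microtubule regulator of growing axons, read 14909, 54782, 287 and 4825 in the sustained cells and 55514, 121734 and 140196 in the transient cells. OFF S alpha 15 and OFF T alpha 17 barely differed, and the difference between the medians, -3.84, moved to -1.40 with the brightest probe set in each cell. *Crmp1*, a semaphorin signalling protein, differed by -4.69. Of 51 immunoglobulin and LRR adhesion genes 15 were detected in at least 3 cells, 1 was past the fold on each side (4.91% and 0.622% of all genes), and the median difference was -3.06. *L1cam*, an axonal adhesion molecule, read 28581, 3452, 3641 and 10.6 in the sustained cells and 77082, 103948 and 49410 in the transient cells, higher in every transient cell and detected in 3 sustained cells as well. Of 30 cadherins and protocadherins 6 were detected in at least 3 cells and 1 was past the fold on the transient side, *Cdh4* (R-cadherin), at 77.8, 120, 58.3 and 191 in the sustained cells and 22015, 3603 and 8996 in the transient cells. Of 47 axon guidance genes 6 and of 41 transcription factors of RGC subtypes 4 were detected in at least 3 cells, with 0 past the fold.

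Of 24 neuropeptide and granin genes 7 were detected in at least 3 cells and 2 were past the fold, *Gal* and chromogranin A (*Chga*), both on the transient side (4.91% of all genes), while the median difference was 0.08. *Chga* was detected in all 7 cells, at 12714, 55533, 8683 and 20918 in the sustained cells and 66874, 87953 and 83680 in the transient cells, and OFF S alpha 15 was close to the transient range. Of 31 synaptic vesicle and SNARE genes 22 were detected in at least 3 cells, 0 were past the fold, and the median difference was -0.40. *Slc17a7*, a vesicular glutamate transporter of photoreceptors and bipolar cells, was detected in 3 of 4 sustained and 0 of 3 transient cells, and in 9 of the 13 outside cells with rod markers and 0 of the 9 without.

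Of 64 oxidative phosphorylation genes 58 were detected in at least 3 cells and 36 in all 7, with a median difference of 0.08 and 1 past the fold on the transient side (4.91% of all genes). That gene was *Ndufa8*, a complex I subunit, at 3997, 545, 194 and 76 in the sustained cells and 30852, 20976 and 28969 in the transient cells. The remaining lists gave 0 past the fold: 17 ion pumps and exchangers (10 detected in at least 3 cells), 22 activity-regulated genes (2), 21 matrix metalloproteinases and inhibitors (5), 7 Kv beta and other partners (2), 11 amacrine (1) and 5 horizontal cell markers (1).

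The 2 subtypes shared 401 genes detected in all 7 cells. Of these, 230 were detected in at least 20 of the other 22 cells, 100 in all 22, and 13 in no more than 11. The least common outside were *Iftap* (7 of 22) and *Syt2* (8 of 22). *Syt2*, the fast calcium sensor of transmitter release, read 28665, 74952, 36600 and 23637 in the sustained cells and 58646, 181649 and 97352 in the transient cells, and both ON alpha cells were detected, at 47519 and 19119. *Snrpa1*, *Washc2* and *Ncaph2* followed, each in 10 of 22. *Nefh*, *Il6st* (the shared receptor subunit gp130), *Tspan17*, *Ppm1l* and *Ppp2r5b* were each detected in 11 of 22. *Nefh* differed by only -0.25 between the groups.

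Pairs of transient cells resembled each other more than pairs of sustained cells. Over the 3217 genes, Pearson's r of log2 signals was 0.38 to 0.40 in the 3 transient pairs, 0.14 to 0.34 in the 6 sustained pairs and 0.12 to 0.45 in the 12 pairs across the groups. The means were 0.40, 0.22 and 0.24. The highest r of all pairs, 0.45, was that of OFF S alpha 15 with OFF T alpha 19. OFF S alpha 15 had r of 0.37, 0.45 and 0.34 with the transient cells 17, 19 and 20. With the sustained cells 14, 16 and 18 its r was 0.19, 0.19 and 0.14. These are correlations across genes, which are not independent replicates, between pairs that share cells, depth and rod RNA, and they were not tested.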

How the data were processed

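Single RGCs were hybridized to 1 array each. The authors deposited MAS5 signal values, a linear intensity per probe set, whose MAS5 version and settings are not given in the sources used here. On each array the 2% trimmed mean was 1500, so the signals were used as deposited. Of 45101 probe sets, 34958 had 1 gene in the platform annotation, 932 several and 9211 none listed, and only the first were used. For each of the 18194 genes, the probe set whose log2 signal averaged highest across all 29 cells stood for the gene. Detection (3000) was 2 times the trimmed mean and the floor (375) 0.25 of it. The 3217 genes detected in at least 3 of 7 OFF alpha cells were compared. When cells were left out, the minimum was the size of the smaller group.

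No test was run. Precision is limited by how few arrays there were. Named were the 12 genes with the largest difference on each side among those past the fold and detected in every cell of one group and none of the other, the 10 genes detected in all 7 cells that were least often detected elsewhere, 3 markers, the alpha marker and Kv4 partner lists, list members past the fold, and up to 4 members a list with the largest differences. *Kcnd1*, *Kcnc1*, *Scn8a* and *Eif3a* were added after their values were seen. On the sustained side only 2 genes met that rule. The cells, markers and 35 gene lists were chosen with earlier results of these data known. Alternatives changed the threshold, floor, fold, scaling, probe set, gene filter and cells. The steps were tested on simulated data. Promoters came from RefSeq (GRCm38.p6), where 134 of the 158 transient-side genes had an entry. Python 3.11.15, numpy 2.4.6, pandas 2.3.3, scipy 1.17.1 and matplotlib 3.10.9 were used.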

Additional observations from a re-analysis of the deposited data

Results flagged for a closer look

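Among the named genes, 13 had 1 of the 4 OFF S alpha cells far from the other 3 on the log2 scale, by Dixon's ratio of gap to range. Chance alone sets apart about 1 in 20 groups of values, and signals at the floor count as equal, which makes a single higher cell stand out more easily. OFF S alpha 15 stood above the other sustained cells in *Dpp6*, at 29161, where it was also above all 3 transient cells. It also stood above them, but below detection, in *Lhfp* (2549.93), *Arnt2* (1725.88), *Tmem250-ps* (1094.31), *Mmp17* (480.44) and *Cirbp* (405.61), and below them in *Stx3* (476.25). OFF S alpha 14 stood above the others in *Ndufa8* (3996.52), *AU040320* (691.64) and *Fes* (452.2). OFF S alpha 16 stood above them in *Kcnip3*, at 50417.9. OFF S alpha 18 stood below them in *Pvalb*, at 1187.82, and above them in *Anapc13*, at 254099. With 3 cells, the OFF T alpha group was not examined in this way.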

How the results depend on the processing

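No paired analysis was possible because the cell numbers only name cells and no test was run. In the counts below, the sustained side is given first. At a threshold of 1 times the trimmed mean the genes detected in every cell of one group and none of the other numbered 4 and 95, and at 4 times 3 and 57. Quantile normalization gave 45 and 143 genes past the fold and 10 and 59 by detection, averaging all probe sets gave 16 and 93 and then 1 and 42, with 264 genes detected in all 7 cells in place of 401, and a fold of 16 gave 10 and 107. Using all 18194 genes gave 21 and 262. Leaving out each cell in turn gave 27 to 105 sustained-side and 174 to 381 transient-side genes past the fold, 2 to 28 and 98 to 217 by detection, 406 to 566 genes detected in all remaining cells, and mean r of 0.17 to 0.24, 0.37 to 0.41 and 0.17 to 0.27 within OFF S alpha, within OFF T alpha and between. Within OFF T alpha mean r was 0.32 with no floor, 0.46 with the floor at the trimmed mean, 0.41 after quantile normalization and 0.43 with probe sets averaged, and over all genes the means were 0.48, 0.65 and 0.53. The 3 comparisons chosen after seeing the data were centring on the 401 shared genes (17 and 171, with a median difference over all compared genes of -1.001), cells with at least 5 rod markers (101 and 1038) and the 2 cells of each group closest in depth (424 and 383). For single named genes, 953 of the alternative values moved by less than the spread of the cells and 82 by more. No named gene past the fold changed sign. Sign changes of the other named genes, some of which differ by little, were not counted. Past-fold differences that fell inside the fold were, beyond those given above, *Chga* in the depth-matched cells (-1.69), *Eif4h* (1.68), *Htatsf1* (0.85), *Rps20* (1.57), *Stx3* (1.79) and *Mrps21* (1.05) with probe sets averaged, *Anapc13* (0.69), *Nucb1* (1.32), *Rps20* (1.81) and *Rps19* (1.24) against OFF T alpha 19 as the only transient cell with at least 5 rod markers, and *Atp5mpl* without OFF S alpha 16 or 18 (1.97). *Mrps21* also fell inside it without OFF S alpha 14 or 15 (2.00 after rounding), without OFF T alpha 19 (1.45) and centred (1.41), and *Rps19* without OFF T alpha 20 (1.88) and centred (1.93). The cause of these moves was not tested. OFF S alpha 16 and 18 had the fewest detected genes of the 7 cells, so a gene not detected there is not shown to be absent.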
